A study of Mus musculus with 6 samples.

Results

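Ion channel subunit genes were examined in whole ovaries of wild-type mice and of mice with 1 intact copy of Rnf111. The genes were chosen by symbol: those of the potassium channel family (Kcn, without the noncoding Kcnq1ot1), the voltage-gated calcium channels (Cacna, Cacnb, Cacng), the voltage-gated sodium channels (Scn followed by a digit), the GABA-A receptors (Gabr), and the ionotropic glutamate receptors (Gria, Grik, Grin or Grid followed by a digit). Of 35415 genes in the count table, 176 met this rule, and 117 of them had at least 10 counts in at least 3 of the 6 libraries. All 117 were also tested for a difference between the genotypes. Both genotypes were sampled at an age of 3 months and in estrus, and 3 ovary libraries were made per genotype, each titled with a mouse of its own. The heterozygous mice (Rnf111+/-) were made by CRISPR-Cas9 editing, and the study asked what loss of 1 copy of this ubiquitin ligase gene does to the ovary. The study made more than 1 edited line, and the sources used here give neither the line that was sequenced nor the mouse strain. Rnf111 itself was lower in heterozygous ovaries, by 0.27 ± 0.07 on the log2 scale (SE, adjusted p = 0.04, edgeR's quasi-likelihood test with Benjamini-Hochberg adjustment), a call that 5 of the 6 fits with 1 library left out did not keep.

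Ion channels are membrane pores that set the voltage of a cell and let calcium in when that voltage changes. Potassium channels hold the voltage negative, voltage-gated calcium and sodium channels open when it rises, and GABA-A and glutamate receptors open when a transmitter binds. Most are assembled from pore-forming subunits and from auxiliary subunits that change how the pore opens or where it sits. In the ovary, such channels are known from smooth muscle of vessels and stroma, from steroid-making cells, whose hormone output depends on calcium, and from the oocyte, whose calcium entry matters at fertilization.

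Depth was even, at 38261449 to 39474515 counts per library, of which the 117 genes held 0.123 to 0.136%. Levels are given as CPM, the counts of a gene relative to the TMM-scaled library total, and the detection floor of 3 counts was 0.0747 to 0.0784 CPM. Wild-type replicate 3 stood apart from the other wild-type libraries, at -33.6 on the second principal component against 14.3 and 12.1. Its summed level of 5 oviduct epithelium markers was 164.7 CPM, against 2.19 to 11.2 CPM in the other 5 libraries, and its Ovgp1 count was 5730 against 71 to 315. Oviduct markers were not its only difference. Its 7 granulosa markers summed to 2189 CPM, against 3948 to 5461 CPM in the other 5 libraries. Its adipocyte markers summed to 60.55 CPM against 13.91 to 43.97 CPM, and its immune markers to 116.8 against 65.1 to 98.64 CPM. Marker genes of several cell types also moved with genotype. The 7 smooth muscle markers summed to 1116 to 1462 CPM in wild-type and 682.7 to 921.4 CPM in heterozygous ovaries, with 4 falls (Tagln, Lmod1, Myh11 and Actg2). The 7 endothelial markers summed to 356 to 419.3 against 263 to 304.4 CPM, also with 4 falls, and 4 of 6 surface epithelium markers fell. The 10 oocyte markers summed to 131.9 to 153.8 against 191.2 to 250.8 CPM, with 6 rises. The 6 corpus luteum markers summed to 1311 to 2700 against 5003 to 7662 CPM, with 0 rises and 1 fall (Parm1). The 6 theca and interstitial markers summed to 12050 to 13040 against 8479 to 10670 CPM, with 1 rise (Cyp17a1) and 2 falls (Star and Hsd3b1). The 11 neuronal markers were low, at a sum of 33.17 to 48.7 against 23.01 to 27.43 CPM, with Nefl at 0 in all libraries and 2 falls (Syt1 and Tubb3) among 8 tested. In whole ovaries, fewer cells of a type and less RNA per cell cannot be told apart, and the part of these shifts in the channel results was not tested.

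Of the 117 channel subunit genes, 8 rose and 6 fell in heterozygous ovaries, and 103 did not pass. Among the genes that rose were Gabrb2 (GABA-A receptor), Kcng4, Kcne2, Kcnk1 and Kcnma1 (potassium channels), and Cacna1d and Cacnb4 (calcium channels). Those that fell were Kcnj16, Kcnj11, Kcnk3 and Kcnmb4 (potassium channels), and Cacna1c and Cacnb3 (calcium channels). None of the 10 sodium channel genes and none of the 13 glutamate receptor genes passed. The count of 14 is 12% of the members, beside 9.64% called among all 16841 tested genes (3.9% rose and 5.74% fell). Counts by channel type, given below, stand beside the same shares. For 3 of the called genes, Kcnj11 and Kcnj16 among them, 10 or more counts were found in 1 genotype only, so that the count minimum itself favoured a difference. Among the 114 genes with at least 1 such library in each genotype, 11 were called, or 9.65%. The 9.64% of all tested genes was not restricted in this way, so these shares are of unlike gene sets. Of the members, 39 (33.3%) had genotypes that did not overlap, 17 higher and 22 lower in heterozygous ovaries, beside 32% of all tested genes. The median log2 fold change of the members was -0.09, against -0.008 for all tested genes. At the count minimum, the genes just inside were Kcnj15 (11 counts in the library that decides the rule, the third from the top), Kcna1 and Kcnj11 (12 each), and those just outside were Gabrq (9) and the antisense gene Kcnd3os (8).

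**Figure D1:**
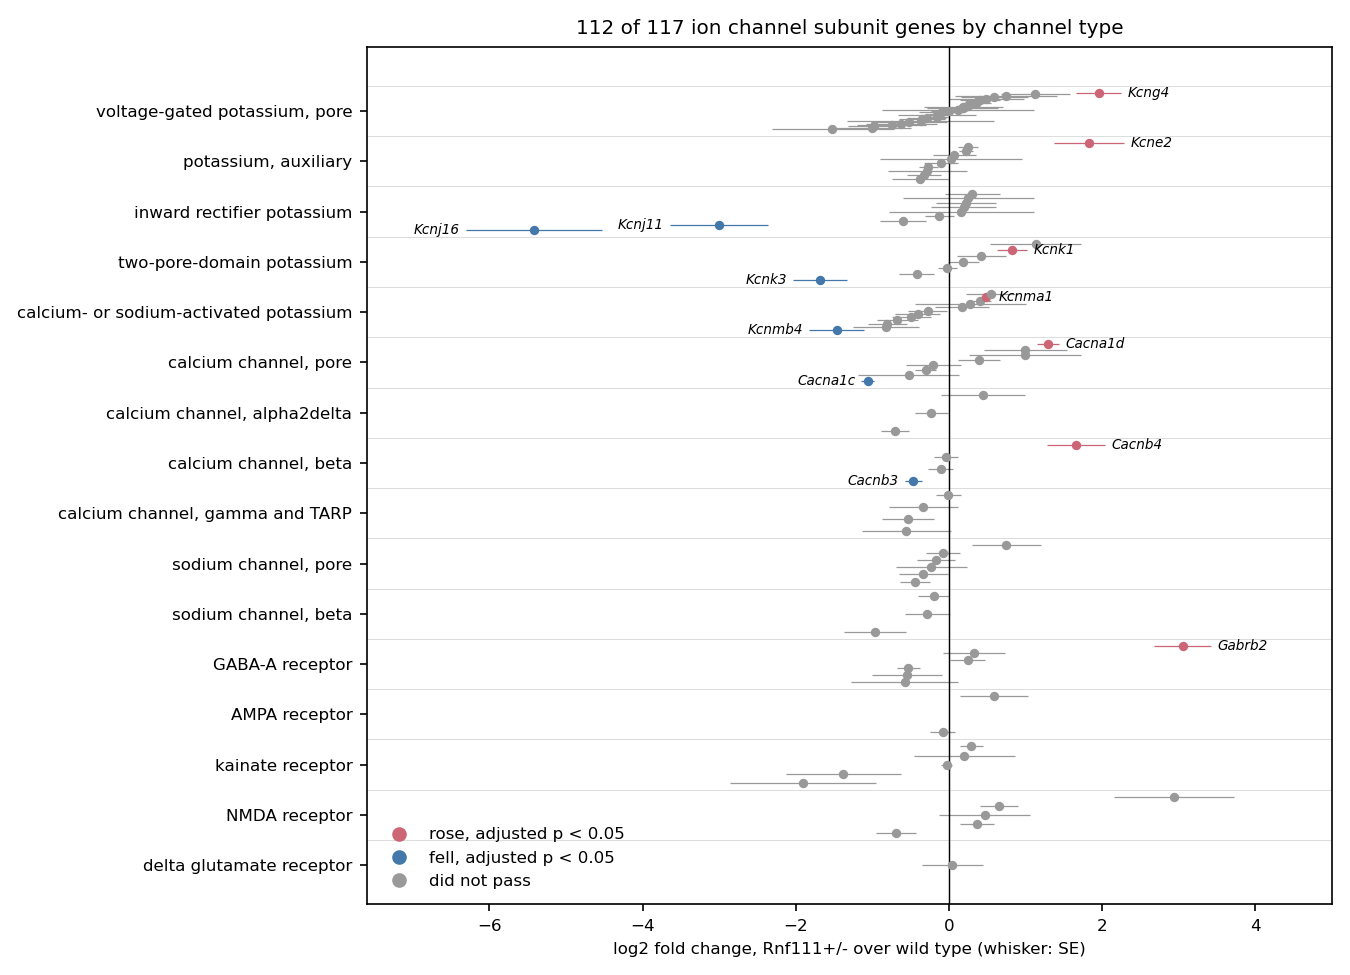
Log2 fold change (heterozygous over wild type, horizontal axis) of 112 of the 117 ion channel subunit genes, grouped by channel type, with whiskers for the standard error. The called genes shown are named, 7 that rose and 6 that fell, and in 4 groups (two-pore-domain potassium, calcium- or sodium-activated potassium, calcium channel pore and calcium channel beta) 1 gene rose and 1 fell.

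Per kilobase of exon, the levels of the 117 genes spanned 0.0381 to 24.4 CPM per kilobase over all 6 libraries, with a median of 0.456. This scale divides CPM by the length of all annotated exons of each gene and allows an approximate comparison of genes. The highest mean levels were those of Kcnk3 (24.4), Kcnab3 (22.0), Grik5 (14.74), Cacnb3 (14.71), Kcnh2 (10.5) and Kcnk1 (10.2). Kcnk3 led in wild-type ovaries at 37.2 CPM per kilobase and was at 11.6 in heterozygous ovaries, where Kcnab3 led at 23.9. Grik5 and Cacnb3 were alike in mean level, but Cacnb3 differed between genotypes and Grik5 did not pass. By count, 31 members had a mean of at least 10 CPM and 30 a mean under 1 CPM, where a fold change rests on few reads.

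The potassium channels that conduct at rest, the tandem-pore (two-pore-domain) family, included the gene with the highest per-length level in wild-type ovaries, which fell, and a relative that rose. Of 7 members, 1 rose, 1 fell and 5 did not pass. Kcnk3 encodes an acid-sensitive leak channel known from adrenal and vascular cells. It was at 175.2, 192.4 and 76.4 CPM in wild-type ovaries and at 42.5, 47.1 and 48.5 CPM in heterozygous ovaries. The groups did not overlap, and wild-type replicate 3 lay between the other wild-type libraries and the heterozygous ones. The log2 fold change was -1.69 ± 0.35 (SE, adjusted p = 0.0401, edgeR). Without wild-type replicate 3 it was -1.99 with an adjusted p of 1.29e-07, and leaving out any other single library ended the call (adjusted p = 0.0916 to 0.139). Gm9899, which shares exon sequence on the opposite strand with Kcnk3 over 5.76% of the exon length of Kcnk3, had 182, 162 and 103 counts against 42, 110 and 68 and did not pass (adjusted p = 0.132). The 4 adrenal cortex markers summed to 4.87 to 22.4 CPM in wild-type ovaries, nearly all of it Cyp11b1, and to 0.0255 to 0.131 CPM in heterozygous ovaries. Cyp11b1, the only one tested, fell from 624, 187 and 864 to 4, 0 and 0 counts, and Cyp11b2, Cyp21a1 and Mc2r had at most 6 counts in any library. Within the wild-type ovaries, replicate 3 had the most Cyp11b1 counts and the lowest Kcnk3 level, and replicate 2 the fewest counts and the highest level. The part of adrenal markers in the Kcnk3 result was not tested.

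Kcnk1, a weakly conducting leak channel, was at 17.2, 17.6 and 14.6 CPM in wild-type and at 36.9, 21.0 and 29.4 CPM in heterozygous ovaries. Every heterozygous library was higher, with a wide spread among them, and the log2 fold change was 0.82 ± 0.20 (adjusted p = 0.0384, edgeR). Kcnk2, a stretch-sensitive leak channel, was at 37.2 ± 9.19 CPM in wild-type and 42.4 ± 8.36 CPM in heterozygous ovaries (SD, n = 3 each) and did not pass. As a share of the summed per-length level of the 7 genes, Kcnk3 made up 59.7 ± 13.7% in wild-type and 28.2 ± 2.47% in heterozygous ovaries, and Kcnk1 made up 12.6 ± 2.05% and 31.5 ± 7.70% (SD, n = 3 each). The remaining members, Kcnk5, Kcnk6, Kcnk13 and Kcnk18, had log2 fold changes from -0.42 to 1.13, none called. A share depends on the levels of all genes in its group, so it can move while the gene's own level does not. The mean share of Kcnk5 went from 11.35% in wild-type to 15.76% in heterozygous ovaries, at a log2 fold change of -0.02.

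Among inward rectifiers, which pass potassium near the resting voltage, 2 of 9 members fell and 7 did not pass. Both falls were of genes at low counts that were nearly undetected in heterozygous ovaries. Kcnj16, which pairs with other inward rectifiers and makes them sensitive to acid, had 41, 40 and 19 counts in the wild-type ovaries but 0, 2 and 0 in the heterozygous ones. Summed, these were 100 against 2 counts, a log2 ratio of -5.64 with a 95% exact binomial counting interval of -8.70 to -3.75. The edgeR fit gave a log2 fold change of -5.42 (adjusted p = 0.00906). Since Kcnj16 met the count minimum only through the wild-type libraries, where it was high, these values are a description. Kcnj10, a partner gene of Kcnj16, had 27, 40 and 71 against 58, 48 and 56 counts and did not pass.

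Kcnj11 encodes the pore of the ATP-sensitive potassium channel that couples metabolism to secretion. Its counts were 18, 20 and 12 in the wild-type ovaries but 3, 2 and 1 in the heterozygous ones. The log2 ratio of the summed counts was -3.05 (interval -4.56 to -1.83), and the edgeR fit gave -3.005 (adjusted p = 0.0232). These values are likewise a description, since Kcnj11 too met the minimum only through the wild-type libraries. Abcc8, the sulfonylurea receptor that assembles with this pore, had 14, 9 and 1 against 2, 0 and 0 counts, too few to be tested. The related pair of vascular cells did not pass: Kcnj8 had a log2 fold change of -0.13 ± 0.19, and its partner gene Abcc9 was at -0.64 ± 0.18 (adjusted p = 0.0607). Kcnj3, a pore opened by G proteins and the inward rectifier with the most counts, was at 29.7, 24.7 and 13.97 against 19.1, 39.7 and 25.7 CPM and overlapped (adjusted p = 0.66). Kcnj2, which sits next to Kcnj16 in the gene order, did not pass either (-0.60 ± 0.30).

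The promoters of called genes are shown for those whose call was kept in all 6 fits with 1 library left out and that have an entry in the RefSeq promoter table (build GRCm38.p6, 250 bases before to 50 after a transcription start). Where a gene has several listed starts, the most upstream one is printed, and gene counts do not show which start the ovary uses. Capitals mark matches, on either strand, to 5 motifs. The SMAD-binding element is CAGAC, and the GC-rich SMAD site is GGCGCC. The site of NR5A receptors is AAGGTCA. The cAMP response element was searched as TGACGTCA. The TATA box was searched as TATAAA, whose matches on opposite strands can overlap. Matches differ between the listed starts of a gene. For Kcnj16, Cacna1c, Cacna1d and Gabrb2, a start not printed here holds no match. The listed starts of Kcnj16 number 4, and the upstream one (chr11:110967783-110968082, plus strand) holds 1 match, to the NR5A letters.
Kcnj16: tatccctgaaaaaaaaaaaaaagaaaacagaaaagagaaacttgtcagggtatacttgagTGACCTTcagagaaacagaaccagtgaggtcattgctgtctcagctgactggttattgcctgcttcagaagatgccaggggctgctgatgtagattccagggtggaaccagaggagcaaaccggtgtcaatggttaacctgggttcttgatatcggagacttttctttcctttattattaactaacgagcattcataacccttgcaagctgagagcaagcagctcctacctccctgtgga

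Such matches are common in windows of this length. Of all 32851 promoters in the table, 49.6% hold CAGAC, 11.9% GGCGCC, 4.72% AAGGTCA, 1.79% TGACGTCA and 13.6% TATAAA. Of the 118 promoters listed for 81 of the channel genes, 53.4% hold CAGAC, 17.8% GGCGCC, 5.08% AAGGTCA and 6.78% TATAAA, and none holds TGACGTCA.

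The BK channel, opened by calcium and voltage together, is built from the pore gene Kcnma1 and from beta subunits that tune its calcium sensitivity. Its pore gene rose while a beta subunit gene fell. Kcnma1 was at 88.2, 94.3 and 93.9 CPM in wild-type and at 141.4, 119.6 and 126.4 CPM in heterozygous ovaries. Each genotype was tight and the groups were well apart, for a log2 fold change of 0.49 ± 0.08 (1.40-fold, adjusted p = 0.0087, edgeR). Kcnmb4 was at 4.18, 6.07 and 9.55 against 3.21, 1.61 and 2.33 CPM. Its groups did not overlap but lay close, and it fell by 1.47 on the log2 scale (SE 0.36, adjusted p = 0.0396, edgeR). Kcnmb1, the beta subunit of smooth muscle, was at 4.44, 7.05 and 8.17 against 3.31, 3.58 and 4.34 CPM and did not pass (-0.81 ± 0.25, adjusted p = 0.085). The ratio of Kcnma1 to Kcnmb4, per exon length, was 4.14, 3.04 and 1.93 in wild-type and 8.62, 14.6 and 10.7 in heterozygous ovaries. The geometric means differed 3.80-fold, which is a description, since both genes were paired for their opposite calls. Reads of the antisense genes Kcnmb4os1 and Kcnmb4os2, which share 10.7 and 20.8% of the exon length of Kcnmb4, cannot be told apart from those of Kcnmb4 without strand, and they had at most 16 counts in any library. The smooth muscle markers given above were lower in the same libraries, and their part in these values was not tested.

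Kcnma1 has 1 listed start (chr14:24004156-24004455, minus strand), whose window holds GGCGCC.
Kcnma1: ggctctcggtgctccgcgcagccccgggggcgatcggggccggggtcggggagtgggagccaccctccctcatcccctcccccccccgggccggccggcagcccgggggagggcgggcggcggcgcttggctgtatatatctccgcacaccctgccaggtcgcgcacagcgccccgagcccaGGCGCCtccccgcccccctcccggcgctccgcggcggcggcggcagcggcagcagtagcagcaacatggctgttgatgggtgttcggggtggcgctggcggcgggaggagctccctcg

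The other calcium- and sodium-activated potassium channel genes did not pass. Of all 12 in this group, 1 rose, 1 fell and 10 did not pass, with 3 entirely above and 4 entirely below the wild-type range (58.3% without overlap, beside 32% of all tested genes). Kcnt2, a sodium-activated channel, was at 0.40 ± 0.14, and Kcnt1, its relative, was at 48.7, 51.3 and 24.8 against 27.2, 27.8 and 23.1 CPM. Kcnt1 passed without wild-type replicate 3 (adjusted p = 0.000124), and so did Kcnt2 (0.0262). The small-conductance channel genes Kcnn1, Kcnn2 and Kcnn3 and the intermediate-conductance gene Kcnn4 ranged from -0.49 to 0.54.

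Of 29 pore-forming genes of voltage-gated potassium channels, 1 rose and 28 did not pass. The rise was that of Kcng4, a subunit that makes no channel alone and modifies other voltage-gated pores. It was at 1.31, 0.88 and 0.77 CPM in wild-type and at 4.48, 3.70 and 3.27 CPM in heterozygous ovaries. The lowest heterozygous library was above the highest wild-type library, for a 3.87-fold rise (log2 1.95 ± 0.29, adjusted p = 0.00629, edgeR). Kcns3, another silent modifier, was at -0.98 ± 0.33 (adjusted p = 0.106). The only listed start of Kcng4 (chr8:119635631-119635930, minus strand) holds CAGAC once on each strand.
Kcng4: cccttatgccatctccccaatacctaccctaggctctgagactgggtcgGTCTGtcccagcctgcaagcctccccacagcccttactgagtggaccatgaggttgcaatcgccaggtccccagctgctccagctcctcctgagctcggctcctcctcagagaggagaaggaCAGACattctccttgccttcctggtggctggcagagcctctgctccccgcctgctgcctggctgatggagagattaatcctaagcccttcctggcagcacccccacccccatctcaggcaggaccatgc

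Kcnh2, the gene of a delayed rectifier best known from the heart, had the most counts of this group, at 46.4 ± 3.10 against 55.6 ± 7.72 CPM (SD, n = 3 each), and did not pass (adjusted p = 0.186). Of the KCNQ genes, whose channels open at subthreshold voltage, Kcnq5 was at 14.9, 10.5 and 4.96 against 13.8, 22.5 and 29.8 CPM, with overlap, and did not pass (adjusted p = 0.186). Kcna4, the gene of an inactivating channel, was at 0.391, 0.596 and 5.34 against 3.56, 1.61 and 1.67 CPM, and Kcnq3 at 0.261, 0.492 and 2.02 against 1.79, 1.53 and 1.31 CPM. In both, wild-type replicate 3 alone of the wild-type libraries reached the heterozygous range, and without it both passed, Kcna4 at 2.21 (adjusted p = 0.00984) and Kcnq3 at 2.04 (0.0117), while with all libraries they were at 0.11 and 0.74 and did not pass.

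Among auxiliary subunits of potassium channels, 1 of 10 rose. Kcne2, a single-pass subunit that assembles with Kcnq1 and Kcnh2 channels, was at 1.10, 2.07 and 0.59 CPM in wild-type and at 5.61, 4.88 and 2.87 CPM in heterozygous ovaries. The groups did not overlap, and the log2 fold change was 1.83 ± 0.46 (3.55-fold, adjusted p = 0.0435, edgeR). Its partner Kcnq1 was at 0.36 ± 0.19 and did not pass. Kcnab3, a cytoplasmic beta subunit with the most counts of the group, was at 57.6 ± 9.29 against 68.4 ± 8.73 CPM and did not pass (adjusted p = 0.296, and 0.0245 without wild-type replicate 3). Outside the name rule, the auxiliary subunit genes of Kcnd channels moved apart: Dpp6 fell from 11.9 ± 3.58 to 5.11 ± 0.97 CPM (-1.22 ± 0.25, adjusted p = 0.0196), and Dpp10 rose from 0.18 ± 0.12 to 1.48 ± 0.67 CPM (3.01 ± 0.61, adjusted p = 0.0199). The pores they serve, Kcnd2 (-0.16) and Kcnd3 (-0.13), did not pass.

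Calcium channel genes by symbol, the Cacng group included, had 2 rises and 2 falls among 19 members, 1 of each among the 8 pore genes and 1 of each among the 4 beta subunit genes. These are 25% of the pore genes and 50% of the few beta subunit genes, beside 9.64% of all tested genes. The L-type pores, long-opening channels that trigger contraction and secretion, changed in opposite directions. Cacna1c, the L-type pore of smooth and heart muscle, was at 45.7, 49.6 and 43.9 CPM in wild-type and at 22.0, 22.6 and 22.1 CPM in heterozygous ovaries. It fell by 1.06 on the log2 scale (SE 0.08, adjusted p = 0.000388, edgeR). Cacna1d, an L-type pore that opens at lower voltage and is known from pacemaking and endocrine cells, was at 13.96, 11.5 and 12.3 against 36.8, 28.0 and 28.1 CPM. It rose 2.46-fold (log2 1.30 ± 0.14, adjusted p = 0.00144, edgeR).

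For both genes the genotypes were separated by far more than the spread within them, and both calls were kept in all 6 fits with 1 library left out and in all 7 other settings. Per exon length, the ratio of Cacna1d to Cacna1c was 0.513, 0.391 and 0.472 in wild-type and 2.81, 2.08 and 2.13 in heterozygous ovaries, a 5.08-fold difference in the geometric mean, given without a test because the pair was chosen for its opposite calls. The summed per-length level of the 3 L-type pore genes was 3.36 ± 0.25 against 3.85 ± 0.46 CPM per kilobase (SD, n = 3 each). The share of Cacna1c in it was 65.2 ± 2.87% against 27.6 ± 3.41%, and that of Cacna1d 29.9 ± 3.46% against 63.6 ± 2.84%. Cacna1s, the L-type pore of skeletal muscle, was at 1.41, 1.84 and 0.13 against 2.74, 1.53 and 2.46 CPM and did not pass (adjusted p = 0.456). Chdh, which overlaps Cacna1d on the opposite strand over 4.67% of its exon length, also rose, from 86, 109 and 129 to 311, 363 and 362 counts (1.66 ± 0.20, adjusted p = 0.0026), and the strand setting of the counting is not given. The smooth muscle markers were lower in the same libraries in which Cacna1c was lower.

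The upstream starts of both genes are shown because the genes are close relatives that moved in opposite directions. Cacna1c has 3 listed starts (shown: chr6:119196360-119196659, minus strand, with CAGAC on both strands), and Cacna1d has 2 (shown: chr14:30491107-30491406, minus strand, with CAGAC letters on the reverse strand at 2 places and TATA letters at 3, of which 2 overlap).
Cacna1c: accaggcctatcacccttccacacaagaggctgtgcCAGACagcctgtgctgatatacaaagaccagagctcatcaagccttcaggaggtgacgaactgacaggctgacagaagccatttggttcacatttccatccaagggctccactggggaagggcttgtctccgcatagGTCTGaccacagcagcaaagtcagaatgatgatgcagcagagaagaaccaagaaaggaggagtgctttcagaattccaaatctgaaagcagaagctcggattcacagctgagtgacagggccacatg
Cacna1d: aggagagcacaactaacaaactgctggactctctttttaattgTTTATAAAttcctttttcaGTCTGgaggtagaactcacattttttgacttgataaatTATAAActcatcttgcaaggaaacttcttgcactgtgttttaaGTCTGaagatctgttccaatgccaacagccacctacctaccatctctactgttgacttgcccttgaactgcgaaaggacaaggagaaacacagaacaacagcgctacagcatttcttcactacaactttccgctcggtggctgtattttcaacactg

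**Figure D2:**
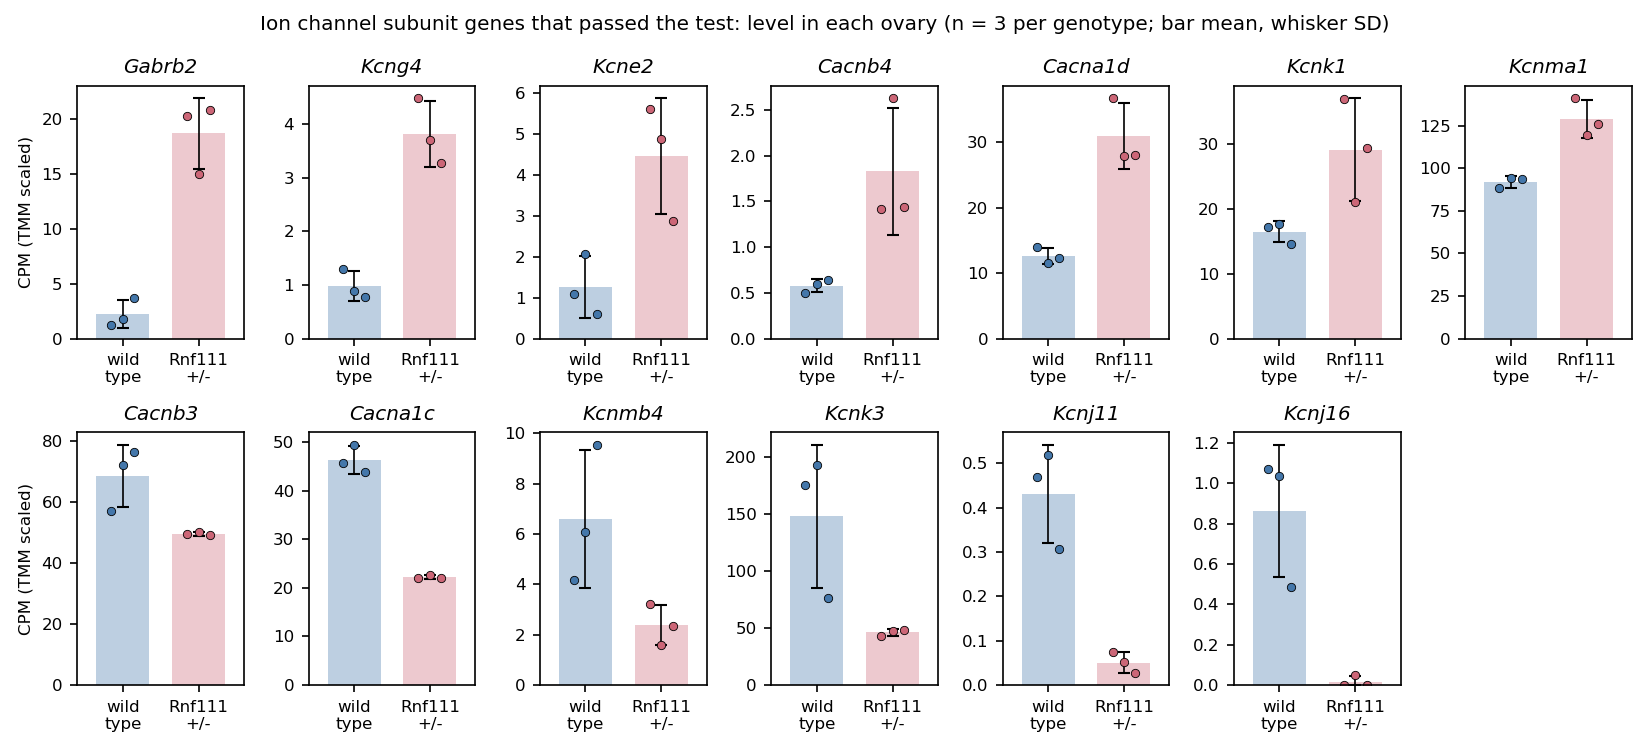
CPM (vertical axes, each from 0) of 13 called channel genes in each of 3 wild-type and 3 heterozygous ovaries, ordered by log2 fold change, with bars for the mean and whiskers for the SD. In each panel the groups do not overlap, and wild-type replicate 3 (right-hand wild-type point) lies nearest the heterozygous range for Kcnk3, at 76.4 CPM.

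The remaining calcium pores did not pass. Cacna1h, a T-type channel that opens near rest and the pore with the most counts, was at 74.9, 77.3 and 56.4 against 63.8, 54.3 and 50.7 CPM (-0.31 ± 0.14, adjusted p = 0.204, and 0.0135 without wild-type replicate 3). Cacna1a, a pore of nerve endings, was at 0.39 ± 0.27. Cacna2d1, an extracellular subunit that brings pores to the membrane, was at 84.5, 80.0 and 124.4 against 52.0, 65.3 and 59.9 CPM. Its groups did not overlap, but the difference missed the threshold (-0.71 ± 0.18, adjusted p = 0.0517), passing without wild-type replicate 3 (0.00714) and with DESeq2 (0.00143).

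The cytoplasmic beta subunits, which bind the pore and help it reach the membrane, had 1 fall and 1 rise. Cacnb3, by count the main one, fell from 56.8, 72.1 and 76.4 to 49.3, 50.2 and 49.0 CPM (-0.47 ± 0.11, adjusted p = 0.0325, edgeR). Cacnb4, a beta subunit of the brain, rose from 0.496, 0.596 and 0.639 to 1.42, 2.63 and 1.44 CPM (1.66 ± 0.38, adjusted p = 0.0296, edgeR). Neither pair of groups overlapped, and heterozygous replicate 2 stood above its group for Cacnb4. Even so, Cacnb3 made up 83.9 ± 0.493% of the summed per-length level in wild-type and 79.1 ± 1.27% in heterozygous ovaries, and Cacnb4 only 0.317 ± 0.00714% and 1.31 ± 0.485% (SD, n = 3 each). A430018G15Rik overlaps 16.0% of the exon length of Cacnb4 on the opposite strand and did not pass (0.02 ± 0.27). Cacnb1 (-0.04) and Cacnb2 (-0.11) did not pass, and neither did the 4 members of the Cacng group, led by Cacng7, which escorts AMPA receptors (8.51 ± 0.63 against 8.46 ± 1.34 CPM).

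Genes of small GTPases that bind beta subunits and block calcium channels were among the changed partners outside the name rule. Rrad fell from 21.6 ± 2.35 to 5.68 ± 0.95 CPM (-1.93 ± 0.16, adjusted p = 0.000476) and Rem1 from 11.7 ± 2.74 to 4.43 ± 0.27 CPM (-1.40 ± 0.20, adjusted p = 0.00552). Gem, of the same family, rose from 40.9 ± 3.10 to 71.7 ± 4.61 CPM (0.81 ± 0.09, adjusted p = 0.00139; SD, n = 3 each, edgeR).

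GABA-A receptors are chloride channels assembled mainly from alpha and beta subunits together with a further kind such as gamma or delta. Of 19 genes in the table, 8 met the count minimum, and 2 of these rose, 0 fell and 6 did not pass. Gabrb2, a beta subunit gene, was at 1.28, 1.81 and 3.68 CPM in wild-type and at 20.3, 14.99 and 20.9 CPM in heterozygous ovaries. The groups were far apart, with wild-type replicate 3 highest of the wild-type ovaries, and the rise was 8.27-fold (log2 3.05 ± 0.38, adjusted p = 0.00463, edgeR).

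Of the genes next to Gabrb2 in the order of the RefSeq annotation, Gabra6 had 0 counts in all 6 libraries. Atp10b, on the other side, had 28, 20 and 101 counts in wild-type and 177, 182 and 100 in heterozygous ovaries, so that wild-type replicate 3 reached the lowest heterozygous count, and did not pass (1.604 ± 0.59, adjusted p = 0.14). Gabrb2 has 3 listed starts, and the upstream one (chr11:42420190-42420489, plus strand) holds CAGAC and a TATA box.
Gabrb2: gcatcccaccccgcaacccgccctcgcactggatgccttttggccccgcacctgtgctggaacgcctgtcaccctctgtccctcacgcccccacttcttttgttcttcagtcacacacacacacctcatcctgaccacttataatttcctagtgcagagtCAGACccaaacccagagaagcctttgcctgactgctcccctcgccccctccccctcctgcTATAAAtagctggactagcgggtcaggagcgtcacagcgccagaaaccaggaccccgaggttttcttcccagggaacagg

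Gabra3 encodes the alpha subunit with the highest per-length level. Gabra3 was at 17.9, 17.0 and 17.7 against 9.72, 12.9 and 13.8 CPM, without overlap, and missed the threshold (-0.53 ± 0.15, adjusted p = 0.0589), passing with DESeq2 (0.0123), without a filter (0.0432) and without wild-type replicate 3 (0.0479). Of the summed per-length level of the 8 genes, Gabra3 made up 70.7 ± 3.19% in wild-type and 41.0 ± 5.51% in heterozygous ovaries, and Gabrb2 made up 5.51 ± 2.78% and 39.1 ± 6.40% (SD, n = 3 each). The summed level of the 8 genes was 6.34 ± 0.33 against 7.52 ± 0.50 CPM per kilobase. The share of Gabra3 depends on the level of Gabrb2 too, so its drop is not a measure of its own change. In mean CPM per kilobase, Gabra3 went from 4.475 in wild-type to 3.095 in heterozygous ovaries, and Gabrb2 from 0.355 to 2.94. Gabrd, Gabre and Gabrb1 overlapped between genotypes.

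**Figure D3:**
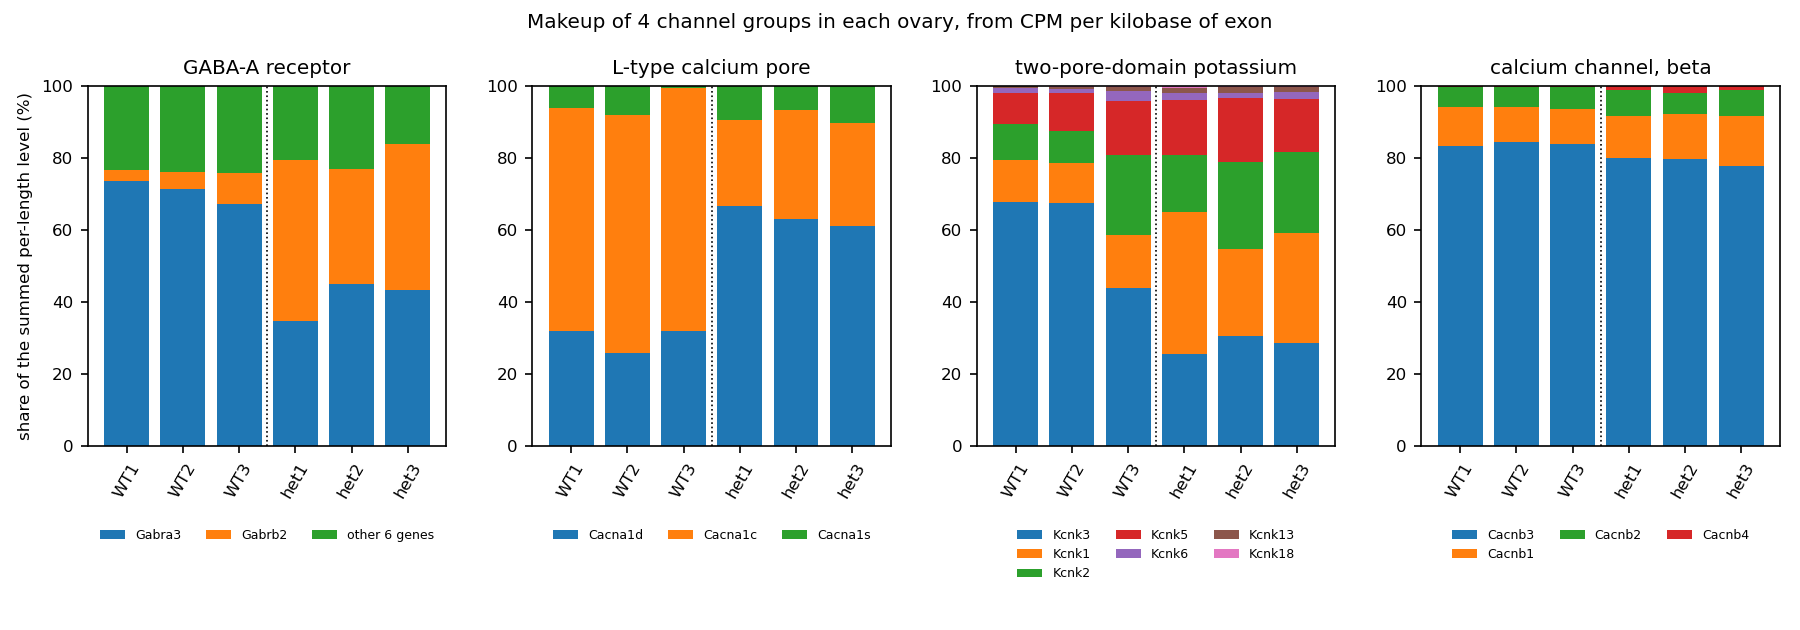
Share (percent, vertical axes) of each gene in the summed CPM per kilobase of exon of 4 channel groups (6 of the 8 GABA-A genes drawn as 1 block), with 1 stacked bar for each of 3 wild-type and 3 heterozygous ovaries. Gabrb2 is 39.1% of the GABA-A bars in heterozygous ovaries against 5.51% in wild type, Cacna1d is 63.6% against 29.9% of the L-type bars, and the Kcnk3 bar of wild-type replicate 3 (43.8%) is lower than those of the other wild-type ovaries. A share depends on all genes of its group and can move while the gene's own level does not.

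The machinery that makes, carries and breaks down GABA and glutamate was read from a separate list of 30 genes, of which 16 were tested, 1 rose and 2 fell. The GABA-synthesizing genes Gad1 and Gad2 had at most 4 counts in any library. Glul, which turns glutamate into glutamine, fell from 851.4 ± 124 to 288 ± 45.3 CPM (-1.56 ± 0.14, adjusted p = 0.00101), and Aldh5a1, which completes GABA breakdown, fell from 60.1 ± 4.14 to 33.6 ± 2.22 CPM (-0.84 ± 0.09, adjusted p = 0.00121; SD, n = 3 each, edgeR).

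None of the 13 glutamate receptor genes passed: 2 AMPA, 5 kainate, 5 NMDA and 1 delta receptor gene. Grik5, a kainate receptor subunit, had the most counts, with values of 78.7, 79.4 and 73.1 against 75.3, 76.3 and 74.4 CPM (log2 -0.03 ± 0.07, adjusted p = 0.804). Grin2c, an NMDA receptor subunit, was at 14.2 ± 3.52 against 18.3 ± 4.06 CPM (adjusted p = 0.363). Grin3a, an NMDA receptor subunit that lowers calcium entry, came nearest to the threshold, with 2, 13 and 3 counts in the wild-type ovaries, 17, 60 and 64 in the heterozygous ones (2.94 ± 0.78, adjusted p = 0.0506). It passed with upper-quartile scaling (0.0481), without a filter (0.0227), with DESeq2 (0.00369) and without wild-type replicate 2 (0.0389). It was chosen for mention after its values were seen. Grik2 was at 1.93, 0.39 and 2.76 against 1.10, 0.61 and 0.24 CPM, with overlap (-1.38 ± 0.76, adjusted p = 0.307). Gria3 (-0.08 ± 0.16) and Grid1 (0.04 ± 0.40) did not pass. Grin1, the subunit that every NMDA receptor needs, had 9 to 30 counts per library.

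None of the 6 sodium channel pore genes and 4 beta subunit genes passed, and 9 of the 10 log2 fold changes were below 0, with medians of -0.20 and -0.36, beside 8633 of all 16841 tested genes and 66 of the 117 members below 0. Scn7a, which encodes a sodium sensor rather than a classic voltage-gated channel, was at 7.52, 8.09 and 11.4 against 6.60, 7.38 and 5.85 CPM, without overlap (-0.44 ± 0.20, adjusted p = 0.208). Wild-type replicate 3 was the highest library. Scn8a, the pore gene above 0, was at 0.75 ± 0.45 on 11 to 41 counts per library.

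Channel genes outside the name rule were read from a list of 123, of which 85 were tested, 5 rose and 5 fell, with a median log2 fold change of -0.004. The list covers pacemaker, TRP, chloride, purinergic, acid-sensing, nicotinic, calcium-release and volume-regulated channels. Hcn3, a pacemaker channel gene, fell by 0.88 (adjusted p = 0.035). Trpc5, the gene of a receptor-operated cation channel, rose from 0.66 ± 0.24 to 2.84 ± 0.64 CPM (2.09 ± 0.36, adjusted p = 0.0114). Of the volume-regulated anion channel genes, Lrrc8b fell from 56.3 ± 0.66 to 39.2 ± 0.85 CPM (-0.52 ± 0.07, adjusted p = 0.00394), and Lrrc8c rose by 0.39. P2rx6, an ATP-gated channel gene, fell from 8.11 ± 1.15 to 3.29 ± 0.61 CPM (-1.30 ± 0.21, adjusted p = 0.00853; SD, n = 3 each, edgeR).

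Of 49 channel partner and regulator genes, 43 were tested, 6 rose and 4 fell (median log2 -0.06). Dlg3, a scaffold that holds receptors at synapses, rose from 37.8 ± 1.74 to 59.3 ± 1.59 CPM (0.65 ± 0.07, adjusted p = 0.00187). Of 27 ion pump and exchanger genes, 25 were tested, 1 rose and 5 fell (median -0.10). The sodium pump gene Atp1b1 fell by 0.48 ± 0.07 (adjusted p = 0.00701). The mitochondrial sodium-calcium exchanger gene Slc8b1 fell by 0.83 ± 0.16 (adjusted p = 0.0149) and the plasma membrane exchanger gene Slc8a2 by 1.39 ± 0.28 (adjusted p = 0.0197). Slc8a1, the related exchanger of muscle, rose from 34.8 ± 2.07 to 45.0 ± 2.74 CPM (0.37 ± 0.09, adjusted p = 0.0328; SD, n = 3 each, edgeR). The called shares of these lists stand beside the same 9.64% of all tested genes.

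The 14 called genes differed in how much they rested on single libraries. With each library left out in turn, 7 calls were kept in all 6 fits, among them those of Cacna1c, Cacna1d, Gabrb2, Kcng4 and Kcnma1, and that of Kcnj16, for which the count minimum favoured a difference. Kcne2, Cacnb3 and Kcnmb4 kept their call in 2 fits each, and Cacnb4, Kcnk1, Kcnk3 and Kcnj11 in 1 fit each, with adjusted p of up to 0.143 where it was lost. All 7 of the latter lost it without heterozygous replicate 1 and without heterozygous replicate 3, and all but Kcnk1 without heterozygous replicate 2. Without wild-type replicate 1, Cacnb4, Kcne2, Kcnj11, Kcnk1 and Kcnk3 lost it, without wild-type replicate 2 all but Kcne2, and without wild-type replicate 3 only Kcnk1. The directions of the 14 did not change in any of these fits. The number of called members was 24 without wild-type replicate 3, of which 13 were shared with the 14, and 10 and 9 without wild-type replicates 1 and 2. It was 7, 8 and 7 without heterozygous replicates 1, 2 and 3. The share called of all tested genes moved likewise, from 16.2% without wild-type replicate 3 to 3.07% without heterozygous replicate 2.

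**Figure D4:**
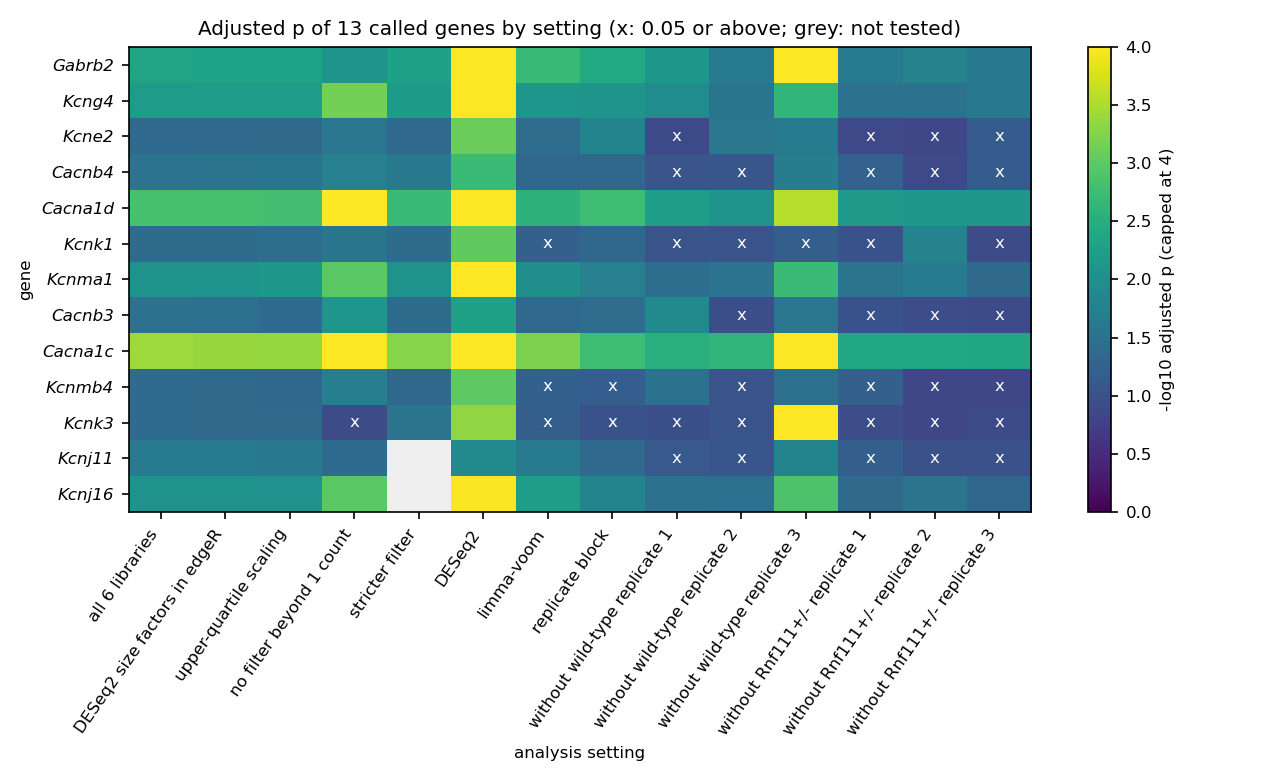
Adjusted p (colour, as -log10, capped at 4) of 13 called channel genes (rows) under all libraries and 13 other analysis settings (columns), with a cross where the value is 0.05 or above and grey where a gene was filtered out. The rows of Cacna1c, Cacna1d, Gabrb2, Kcng4, Kcnj16 and Kcnma1 carry no cross.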

How the data were processed

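RNA was measured by bulk sequencing in 6 ovaries, 3 of each genotype. The authors deposited whole-number read counts per gene. Per the submitters' processing notes, fastp 0.20.1, HISAT2 2.1.0, HTSeq 0.11.2, DESeq2 1.38.3 and the build GRCm39 were used; their roles, the annotation and the strand setting were not given in the sources used here. Per the labels' protocols, TRIzol was used for RNA and a VAHTS kit for the libraries.

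Counts were tested with edgeR 4.0.16 (R 4.3.3): low genes removed by filterByExpr (default minimum count of 10 and total of 15), TMM scaling and a robust two-sided quasi-likelihood test with genotype as the only term, adjusted by Benjamini-Hochberg over 16841 genes and called at 0.05. Adjusted p-values are from this fit except where a different tool is given. The SE was taken as the size of the log2 fold change over the square root of F, and fold changes are those of heterozygous relative to wild-type ovaries. Counting intervals cover counting error only, since no molecular identifiers are named. Exon lengths came from GENCODE M21 (GRCm38), matched by symbol for 117 of 117 genes. Each is the union of all annotated exons of a gene, not the length of the transcripts expressed. Levels per kilobase, and the shares and ratios taken from them, are therefore approximate. Overlaps and gene order are those of GRCm38. The script was tested on simulated data.

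The members and lists were chosen with earlier results of these data known. Named genes were Rnf111, every called member, the member of each group with the most counts, the 6 uncalled members of at least 1 CPM with the largest change, up to 4 called genes of each other list, and marker genes; some genes that meet these rules are not reported here, though counts over groups include them, and others named for their link to these (partners, neighbours, wild-type replicate 3) were chosen after their values were seen. Alternatives were 2 scalings, 2 filters, DESeq2 1.42.0, limma-voom (limma 3.58.1), a replicate block and each library left out. Replicates of a genotype differed by a chi-square of at least 12.5 per degree of freedom, and each was kept as its own sample.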

Additional observations from a re-analysis of the deposited data

How the results depend on the processing

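Of all genes, 1623 were called with all libraries, 2615 with DESeq2 and 530 to 2795 with 1 library left out. Of the channel genes, 14 were called (8 rose, 6 fell); DESeq2 called 22, with 13 falls, and single omissions gave 7 to 24 calls, 5 to 13 rises and 2 to 11 falls. The fewest called genes and called channel genes were found without a heterozygous library, and the most without wild-type replicate 3. Calls of other channel genes numbered 10 (16 with DESeq2, 3 to 19 with 1 library left out), those of GABA and glutamate handling 3 (7 with DESeq2, 5 with the replicate block, 2 to 6), of pumps and exchangers 6 (2 to 9), and of marker genes 27 (8 to 32). Rnf111 was no longer called with upper-quartile scaling (-0.24, adjusted p = 0.0602), without a filter (-0.27, adjusted p = 0.0762), with the replicate block (-0.27, adjusted p = 0.0653), or with 1 library left out (-0.27 to -0.26, adjusted p up to 0.146), except without wild-type replicate 3. The cause of these changes was not tested.

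Kcnk3 lost its call without a filter (adjusted p = 0.124), with limma-voom (0.0614) and with the replicate block (0.0995), Kcnmb4 with limma-voom (0.057) and the replicate block (0.0628), and Kcnk1 with limma-voom (0.0603). The stricter filter removed 3 called genes, Kcnj11 and Kcnj16 among them. Genes near 0 changed sign without being called, among them Cacng7 (0.0004868 with DESeq2's size factors, 0.0226 with upper quartile, 0.005999 with the stricter filter, 0.0002587 with DESeq2, and -0.142 to 0.06898 with 1 library left out), Grid1 (-0.21 to 0.39) and Kcnj3 (-0.01912 to 0.5524). A minimum of 50 counts in place of 10 kept 11 calls. The replicate block left the number of called members at 14, of which 12 were shared, with Cacna2d1 (adjusted p = 0.0443) and Grin3a (0.0294) called in place of Kcnk3 and Kcnmb4. Deviations from the genotype mean correlated at 0.012, 0.006 and 0.1 between same-numbered mice, and at -0.071 to 0.059 between the others. With 3 mice per genotype these values cannot decide whether the numbers pair the mice, and the labels state no pairing. The 3 called members with a mean under 1 CPM had fitted log2 fold changes of at least 3 in size, and smaller differences at that depth were not called.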
